A study of Mus musculus with 6 samples.

Results

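The genes of glycolysis, the pentose phosphate pathway and the response to low oxygen were followed in leukemic blasts of mice that differ at Asxl1. The set was listed by name, without a limit on any measured value. It holds 36 of the 53458 genes measured: 23 of glucose uptake, glycolysis, lactate and pyruvate handling, 4 of the pentose phosphate pathway and 9 of the hypoxia response. The enolases were left out. Blasts of Cebpa-/p30; Asxl1 G643W/G643W genotype (3 libraries, G643W) were compared with blasts of Cebpa-/p30; Asxl1 WT genotype (3 libraries, WT). Both genotypes therefore carry the same Cebpa alleles, which leave only the short p30 form of the myeloid transcription factor C/EBPα, and differ by the G643W change on both alleles of the chromatin regulator Asxl1. Per the labels, the cells came from transplanted C57/BL6 mice with leukemia and were sorted from bone marrow as CD45.2+ cells that had low Mac1 and Gr1 and lacked Ter119, B220 and CD3. The labels number the libraries but do not say whether each stems from its own primary leukemia. The p-values therefore reflect only how these libraries vary, which may include technical variation.

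Glycolysis breaks glucose down to pyruvate, which is either passed to the mitochondrion or reduced to lactate and exported. The pentose phosphate pathway branches off after the hexokinase step and yields NADPH and ribose phosphate. When oxygen is low, the HIF transcription factor (a pair of Hif1a and Arnt proteins) escapes the prolyl hydroxylases of the Egln genes and switches on many glycolytic genes. Neutrophils and their precursors are known for heavy use of glycolysis and for feeding NADPH to the oxidative burst.

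The libraries held 61167075 to 101189225 estimated reads, and all 36 genes passed the filter on low counts. Levels are given as TPM, which corrects for transcript length, where genes are compared with each other, and as CPM, a share of reads scaled between libraries, where the genotypes are compared. Neutrophil markers set the libraries apart within each genotype. The summed level of 13 neutrophil genes was 16219.8, 185382 and 114624 TPM in G643W libraries 1 to 3, against 2724, 13548.7 and 79010.1 TPM in WT libraries 1 to 3. Ly6g, which encodes part of the Gr1 antigen that the sort selected at a low level, was at 10.8, 697 and 245 TPM in G643W libraries and at 6.14, 26.8 and 294 TPM in WT libraries. G643W libraries 2 and 3 and WT library 3 were thus high and the others low. The summed level of 8 monocyte genes was 371, 99.2 and 282 TPM in G643W libraries, against 900.1, 685 and 407 TPM in WT libraries. These sums did not overlap. Ly86, F13a1, Irf8 and Ccr2 were lower in G643W without overlap, whereas Csf1r, Klf4 and Fcgr1 overlapped. Ms4a6c overlapped in TPM but not in CPM. The summed level of 7 dendritic cell genes was 16.5 to 23.2 TPM in G643W libraries, against 82.1 to 164 TPM in WT libraries. Most of the dendritic cell sum was H2-Ab1 in every library (11.6 to 18.3 TPM in G643W, 69.2 to 141 TPM in WT). Flt3, Cd209a and Siglech were also lower in G643W without overlap, whereas Itgax, Xcr1 and Zbtb46 overlapped. The 9 erythroid genes summed to 19.4 to 51.0 TPM in G643W libraries and 1.86 to 12.5 TPM in WT libraries. The 8 T and NK cell genes summed to 43.8 to 97.9 TPM in G643W libraries and 13.1 to 160.5 TPM in WT libraries, nearly all of it Nkg7 (39.8 to 97.1 and 11.1 to 157 TPM), with Cd3d at 3.09 TPM or less and Cd3e at 0.22 TPM or less. The 6 B cell genes summed to 8.97 to 16.1 TPM in G643W libraries and 14.1 to 16.6 TPM in WT libraries, nearly all of it Cd79b (8.31 to 15.3 and 13.6 to 16.2 TPM). The blast genes Cd34 (5.82 to 38.3 TPM in G643W libraries, 42.7 to 94.0 TPM in WT libraries) and Kit (4.44 to 35.9 and 2.12 to 18.0 TPM) were present throughout. Cd34 was lower in every G643W library than in every WT library, while Kit overlapped. The 6 promyelocyte genes summed to 6168, 770 and 2482 TPM in G643W libraries, against 853, 2616 and 4238 TPM in WT libraries. In such sorted but mixed material, fewer cells of a type and less RNA per cell cannot be told apart.

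None of the 36 genes passed the threshold of an adjusted p under 0.05 (edgeR quasi-likelihood test, Benjamini-Hochberg over the 20654 genes tested), and their adjusted p-values ranged from 0.363 to 0.957. Over all genes tested, 25 passed (0.121%), 11 higher (0.0533%) and 14 lower (0.0678%) in G643W. At an unadjusted p under 0.05 the count was 6 of the 36 genes (Mxi1 and Pgd higher in G643W, P4ha1, Egln1, Pfkl and Bnip3 lower), or 16.7%, against 9.66% of all genes tested (3.89% higher and 5.78% lower). DESeq2, which gave a p for all but Ldhb, called 0 of the other 35 genes, against 1.62% of all genes with an adjusted p. Of the 35 genes, 4 had an unadjusted p under 0.05, against 6.13% of all genes with a p. The DESeq2 background was not cut by the filter on low counts that the 36 genes passed. Its 6.13% is over 43606 genes, so it is not like the edgeR share over 20654 genes. In 8 of the 36 genes, or 22.2%, the CPM values of the G643W libraries did not overlap those of the WT libraries, against 15.9% of all genes tested. Of these, 2 were higher in G643W (Pgd and Mxi1) and 6 were lower (Hk2, Pfkl, Ldha, Egln1, Bnip3 and P4ha1). The background was 7.05% of all genes for higher and 8.89% for lower. The log2 difference was positive in 19 genes and negative in 17, with a median of 0.20 and a range of -1.25 to 1.92, where the median over all genes tested was -0.013. The differences were thus split between both directions. Leaving out 1 library moved the log2 difference by over 1.5 times, or changed its sign, in 30 of the 36 genes, the exceptions being Pfkl, Tpi1, Pgd, Egln1, P4ha1 and Mxi1.

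**Figure D1:**
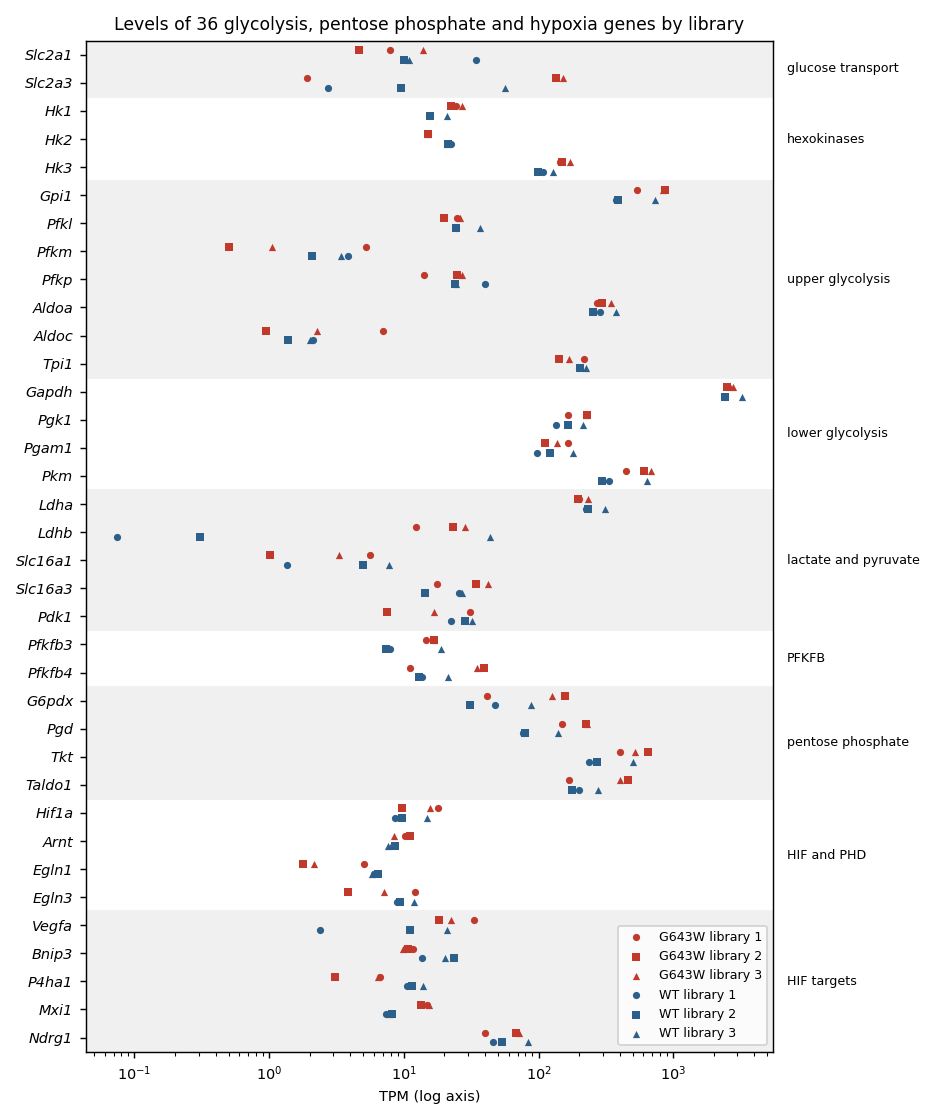
Level of each of the 36 genes in TPM (log axis) in every library, with genes grouped by role, G643W libraries in red above WT libraries in blue and the marker shape giving the library number. Gapdh is highest in every library, and Ldhb, Slc2a3 and Pfkm show the widest spread within a genotype.

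**Figure D2:**
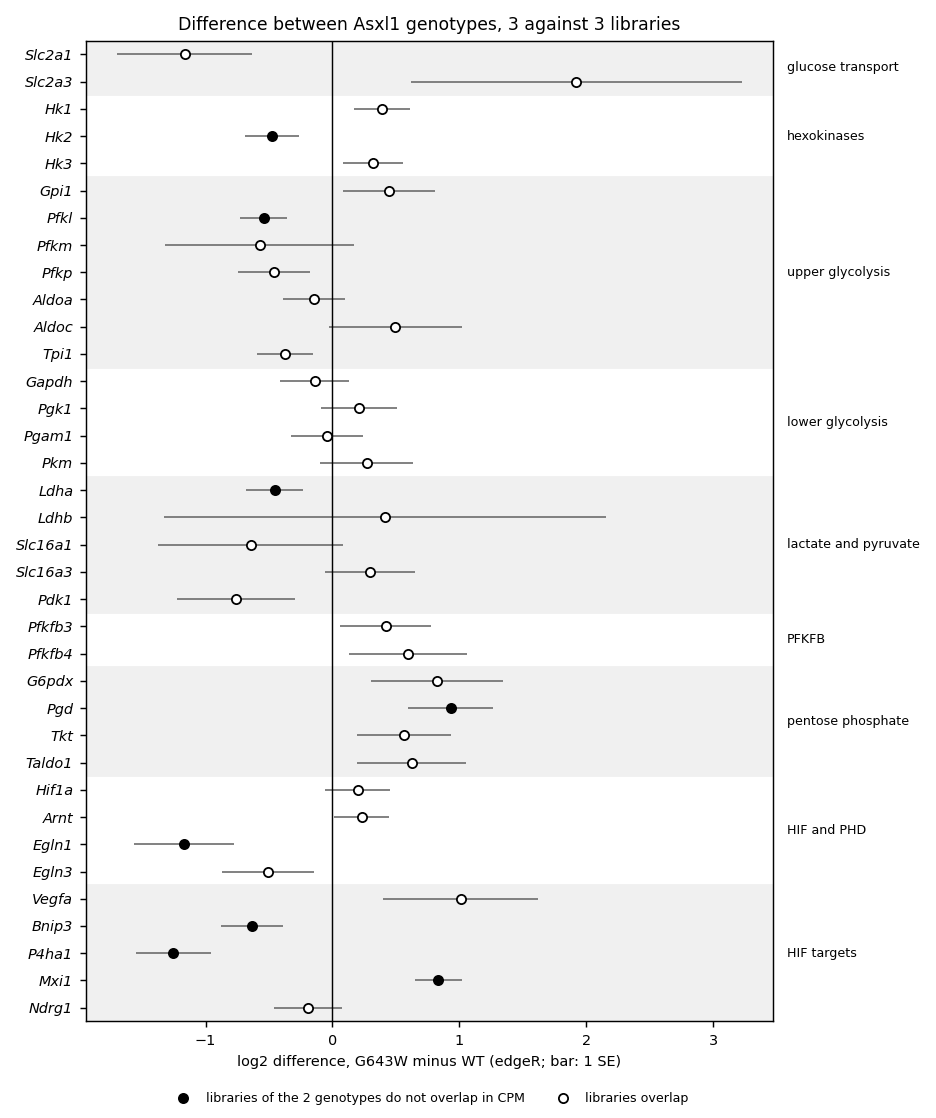
Log2 difference of each gene, G643W minus WT (edgeR, 3 against 3 libraries), with a bar of 1 standard error. Filled points mark the 8 genes whose libraries do not overlap in CPM; the 4 pentose phosphate genes all lie right of 0.

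Glucose entry differed more between libraries than between genotypes. Slc2a3 encodes GLUT3, a high-affinity glucose transporter, and was at 10.6, 469 and 435 CPM in G643W libraries 1 to 3, against 17.4, 40.5 and 183 CPM in WT libraries 1 to 3. The log2 difference was 1.92 ± 1.30 (SE, edgeR adjusted p = 0.598), the largest of the set, and the groups overlapped. Its high values fell in the 3 libraries with high neutrophil markers, and with the mean of those markers as a covariate in the fit the log2 difference was -0.52. It was 3.50 without WT library 3. Slc2a1, which encodes the basal transporter GLUT1, had a difference of the opposite sign, at 22.4, 24.2 and 40.2 CPM in G643W libraries and 121.9, 37.2 and 35.8 CPM in WT libraries. Its log2 difference of -1.17 ± 0.53 (edgeR adjusted p = 0.531) rested on WT library 1 and was -0.34 without it. The share of the TPM of this pair that came from Slc2a3 was 19.5%, 96.7% and 91.5% in G643W libraries, against 7.39%, 48.6% and 83.7% in WT libraries. Most TPM of the pair therefore came from Slc2a1 in library 1 of each genotype and from Slc2a3 in libraries 2 and 3 of G643W and library 3 of WT. Of the Slc2a1 reads, 58.0% were assigned to Slc2a1-204, a transcript annotated for nonsense-mediated decay, and 37.1% to the coding Slc2a1-201. The share of TPM is thus not a share of coding transcripts.

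The hexokinases, which trap glucose by phosphorylating it, differed in their proportions. Hk2, the isozyme known as inducible and as a HIF target, was at 73.7, 95.5 and 87.4 CPM in G643W libraries, against 108, 107 and 142 CPM in WT libraries. No G643W library reached a WT library, and the log2 difference was -0.47 ± 0.21 (edgeR adjusted p = 0.527). The difference was -0.25 without WT library 3 and -0.29 without G643W library 1. Hk3, the isozyme typical of myeloid cells and the most abundant of the family here, was at 144, 150 and 170.4 TPM in G643W libraries, against 108, 99.0 and 128 TPM in WT libraries. Hk1, the common housekeeping isozyme, was at 24.4, 22.4 and 27.0 TPM in G643W libraries, against 15.3, 15.5 and 20.9 TPM in WT libraries. Neither Hk1 nor Hk3 overlapped between genotypes in TPM, but both did in CPM, where the log2 differences were 0.39 ± 0.22 and 0.32 ± 0.23 (edgeR adjusted p = 0.561 and 0.618). Hk2 made up 8.21%, 8.09% and 7.08% of the hexokinase TPM in G643W libraries, against 15.4%, 15.7% and 12.4% in WT libraries, means of 7.80% ± 0.62 and 14.5% ± 1.84 (SD, n = 3 each). Hk3 made up 79.6% ± 0.92 in G643W and 74.1% ± 1.23 in WT, also without overlap. These shares were compared only by their spread and carry no test. Much of the Hk3 TPM came from the short transcripts Hk3-206 and Hk3-207 (423 and 435 bases), which held 3.32% and 2.39% of its reads. They gave 43.6 and 28.9 TPM in G643W library 1, and 24.3 and 23.9 TPM in WT library 1. The Hk3 level in TPM, the shares and the hexokinase sum therefore rest in part on these short transcripts. Summed over the 3 isozymes, the hexokinases stood at 184, 188 and 212 TPM in G643W libraries, against 145, 136 and 170.2 TPM in WT libraries.

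**Figure D3:**
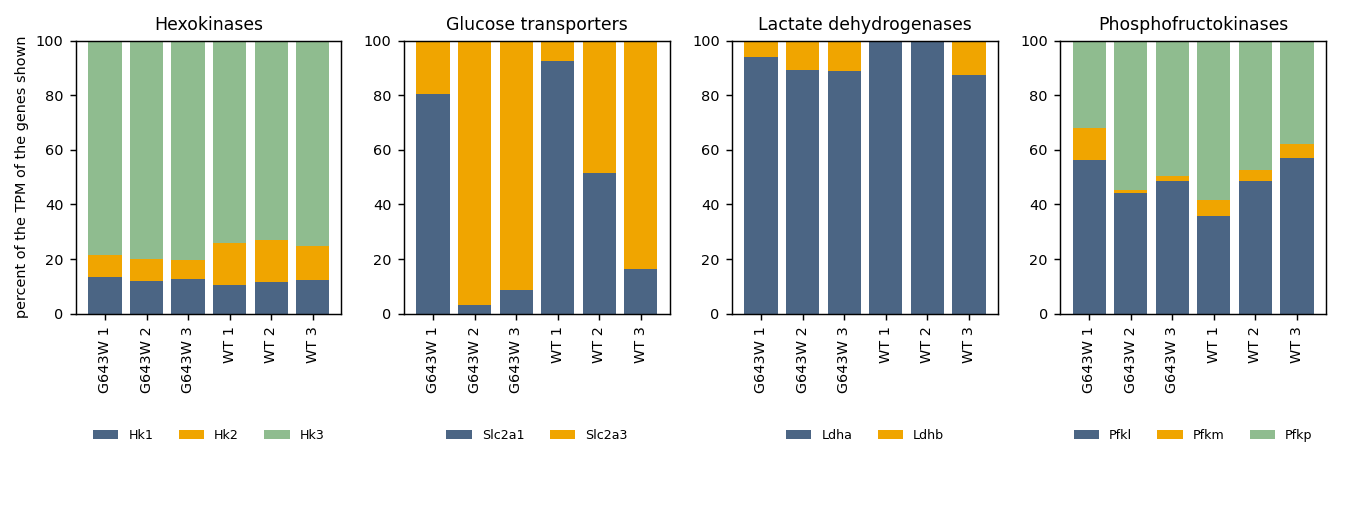
Share of each isozyme in the summed TPM of its family (percent, stacked bars from 0), one bar for each library, for hexokinases, glucose transporters, lactate dehydrogenases and phosphofructokinases. The Hk2 share lies between 7.08% and 8.21% in G643W and between 12.4% and 15.7% in WT, while the transporter shares differ widely within both genotypes.

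In upper glycolysis, phosphofructokinase commits the sugar to breakdown. Pfkl, its liver-type subunit, was at 106, 97.2 and 109 CPM in G643W libraries, against 144, 143 and 169 CPM in WT libraries. The groups did not overlap in CPM, but did in TPM, and the log2 difference was -0.54 ± 0.19 (edgeR adjusted p = 0.493). Pfkp, the platelet-type subunit, was at 53.0, 85.0 and 88.6 CPM in G643W libraries, against 132, 92.8 and 86.9 CPM in WT libraries. Pfkm, the muscle-type subunit, was at 25.7, 3.09 and 6.45 CPM in G643W libraries, against 19.5, 11.2 and 21.7 CPM in WT libraries. Both pairs of groups overlapped (log2 differences of -0.46 ± 0.28 and -0.57 ± 0.74, edgeR adjusted p = 0.574 and 0.770), and the Pfkm difference was -1.80 without G643W library 1. The other 4 genes act around this step. Gpi1, the isomerase before phosphofructokinase, was at 1021, 1836 and 1543 CPM in G643W libraries, against 799, 925 and 1509 CPM in WT libraries (log2 difference 0.44 ± 0.36). Aldoa, the main aldolase, was at 635, 755 and 777 CPM in G643W libraries, against 729, 731 and 942 CPM in WT libraries (-0.15 ± 0.24). Its paralog Aldoc stayed at 14.2, 3.97 and 6.10 CPM in G643W libraries and 7.15, 4.37 and 5.70 CPM in WT libraries (0.49 ± 0.52). Tpi1, which interconverts the products of aldolase, was at 321, 260 and 263 CPM in G643W libraries, against 312, 403 and 379 CPM in WT libraries (-0.37 ± 0.22). None of these 4 came near the threshold (edgeR adjusted p = 0.567 to 0.822).

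Pfkfb3 and Pfkfb4 make and remove the sugar bisphosphate that activates phosphofructokinase. Pfkfb3 was at 93.9, 133 and 112 CPM in G643W libraries, against 57.5, 63.4 and 133 CPM in WT libraries (log2 difference 0.42 ± 0.36). Pfkfb4 was at 37.3, 144 and 111 CPM in G643W libraries, against 64.3, 52.6 and 77.2 CPM in WT libraries (0.59 ± 0.47). For both genes the groups overlapped, and the Pfkfb4 difference was -0.11 with the neutrophil covariate. Of the Pfkfb4 reads, 51.5% were assigned to Pfkfb4-205, which is not annotated as coding, and 27.5% to the coding transcript Pfkfb4-201. Pfkfb4-201 was at 2.87, 5.86 and 3.73 TPM in G643W libraries, against 0.501, 0.784 and 4.44 TPM in WT libraries.

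The payoff steps include the most abundant gene of the set. Gapdh, the dehydrogenase that makes NADH, was the 46th most abundant of all genes by TPM, at 2542, 2518 and 2792 TPM in G643W libraries and 2418, 2444 and 3236 TPM in WT libraries. Its log2 difference was -0.14 ± 0.27 (edgeR adjusted p = 0.853), and 84 near-identical copies elsewhere in the genome held 2.03% to 2.75% of the reads of gene and copies together. Pgk1, which makes ATP from the Gapdh product, was at 499, 814 and 704 CPM in G643W libraries, against 441, 596 and 709 CPM in WT libraries (0.21 ± 0.30). Its 3 copies held 0.0126% (WT library 2) to 5.31% (G643W library 3) of the reads of gene and copies together. The copy Pgk1-rs7, of 100% identity, held 1556, 3210 and 2920 reads in G643W libraries, against 703, 0 and 2179 in WT libraries. With the copies added, the Pgk1 log2 difference was 0.25. Pgam1 moves the phosphate within the resulting acid and was at 535, 411 and 452 CPM in G643W libraries, against 345, 475 and 623 CPM in WT libraries. Its log2 difference was -0.045 ± 0.29 (edgeR adjusted p = 0.957), and 1 copy of identical sequence, Pgam1-ps2, held 6.91% to 10.04% of the reads. No gene of these payoff steps separated the genotypes.

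Pkm encodes pyruvate kinase and was at 1627, 2516 and 2368 CPM in G643W libraries, against 1460, 1357 and 2585 CPM in WT libraries (0.27 ± 0.37, edgeR adjusted p = 0.780, and -0.0094 with the neutrophil covariate). The gene uses either of a pair of mutually exclusive exons: exon 9 gives the constitutively active M1 enzyme of muscle and exon 10 the regulated M2 enzyme of growing cells. The 2 exons are shown because they are what tells the forms apart. Both are 167 bases long on the plus strand of GRCm38, at chr9:59675029-59675195 (M1) and chr9:59675568-59675734 (M2), and capitals mark the 64 positions at which they differ.
Pkm exon 9 (M1): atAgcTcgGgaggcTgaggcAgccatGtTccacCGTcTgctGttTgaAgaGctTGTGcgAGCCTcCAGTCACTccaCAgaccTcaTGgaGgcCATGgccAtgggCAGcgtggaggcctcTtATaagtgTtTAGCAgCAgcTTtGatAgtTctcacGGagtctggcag
Pkm exon 10 (M2): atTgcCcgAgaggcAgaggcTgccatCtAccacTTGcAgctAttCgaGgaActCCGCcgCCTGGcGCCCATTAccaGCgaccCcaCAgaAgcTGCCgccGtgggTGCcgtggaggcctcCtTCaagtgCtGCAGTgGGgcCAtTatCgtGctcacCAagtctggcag
The other 103 positions are the same. The share of TPM from the transcript with the M1 exon, out of the 2 transcripts that hold either exon, was 12.6%, 13.8% and 12.4% in G643W libraries, against 10.97%, 12.6% and 17.5% in WT libraries. The M2 form thus dominated in all 6 libraries, and the mean M1 share was 12.9% ± 0.76 in G643W and 13.7% ± 3.40 in WT (SD, n = 3 each). The difference of -0.77 percentage points gave a two-sided exact permutation p of 0.8, where 0.1 is the smallest that 3 against 3 allows. These transcripts also differ at their ends, so the shares do not rest on the exon alone.

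Lactate dehydrogenase turns pyruvate into lactate. Ldha, the subunit favoured in glycolytic cells and a HIF target, was at 377, 434 and 419 CPM in G643W libraries, against 489, 547 and 652 CPM in WT libraries. These values did not overlap, although the TPM values did, and the log2 difference was -0.46 ± 0.23 (edgeR adjusted p = 0.538). It was -0.27 without WT library 3. Ldhb, the subunit typical of oxidative tissue, was at 14.7, 39.3 and 37.8 CPM in G643W libraries, against 0.105, 0.779 and 68.0 CPM in WT libraries. WT libraries 1 and 2 were close to no Ldhb at all, with 8 and 55 reads, while WT library 3 was above every G643W library. The log2 difference of 0.41 ± 1.74 (edgeR adjusted p = 0.939) was therefore set by WT library 3 and was 6.21 without it (edgeR adjusted p = 0.166). It was negative without WT library 1 or WT library 2. A copy with 98% identity, Gm5514, held up to 16.8% of the reads of gene and copy together, this highest share in WT library 2. Pdk1 blocks the entry of pyruvate into the mitochondrial cycle and was at 68.8, 17.5 and 42.0 CPM in G643W libraries, against 57.3, 78.1 and 82.1 CPM in WT libraries (-0.76 ± 0.46, edgeR adjusted p = 0.574). The lactate exporters Slc16a1 (-0.64 ± 0.73) and Slc16a3 (0.30 ± 0.35) overlapped between genotypes, and Slc16a3 made 75.9% to 97.2% of the TPM of the pair in G643W libraries and 74.2% to 94.97% in WT libraries.

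All 4 pentose phosphate genes had positive log2 differences, with a median of 0.72. Pgd, the later NADPH-making dehydrogenase of the oxidative branch (ENSMUSG00000028961, GRCm38 chromosome 4, 149149991 to 149166771, minus strand), was at 634, 1078 and 954 CPM in G643W libraries, against 356, 409 and 632 CPM in WT libraries. G643W library 1 and WT library 3 almost touched, and the log2 difference was 0.93 ± 0.33 (edgeR adjusted p = 0.493), 1.91 times the WT level. G6pdx, the first and rate-limiting dehydrogenase of the branch, was at 162, 655 and 465 CPM in G643W libraries, against 204, 174 and 346 CPM in WT libraries (0.82 ± 0.52, edgeR adjusted p = 0.584). The G6pdx difference was 0.38 without G643W library 2 and 1.30 without G643W library 1. Of the reversible branch that links back to glycolysis, Tkt was at 1030.2, 1920 and 1384 CPM in G643W libraries, against 694, 874 and 1365 CPM in WT libraries (0.56 ± 0.37). Taldo1 was at 360.0, 1136 and 884 CPM in G643W libraries, against 458, 455 and 632 CPM in WT libraries (0.62 ± 0.43). Without G643W library 2 these 2 differences were 0.30 and 0.27. For G6pdx, Tkt and Taldo1 the groups overlapped, with G643W libraries 2 and 3 above all WT libraries and G643W library 1 within or below their range. Summed, the 4 pentose phosphate genes stood at 762, 1499 and 1279 TPM in G643W libraries, against 561, 558 and 1002 TPM in WT libraries. Of 11 other genes listed for this pathway, 9 were tested. Their log2 differences were positive in 4 and negative in 5, with a median of -0.12. With the neutrophil covariate the log2 differences were 0.62 for Pgd, 0.062 for G6pdx, 0.23 for Tkt and 0.025 for Taldo1. All 13 neutrophil markers had positive log2 differences themselves, with a median of 1.68 and no passing member, and their part in the pentose phosphate values was not tested beyond this fit.

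**Figure D4:**
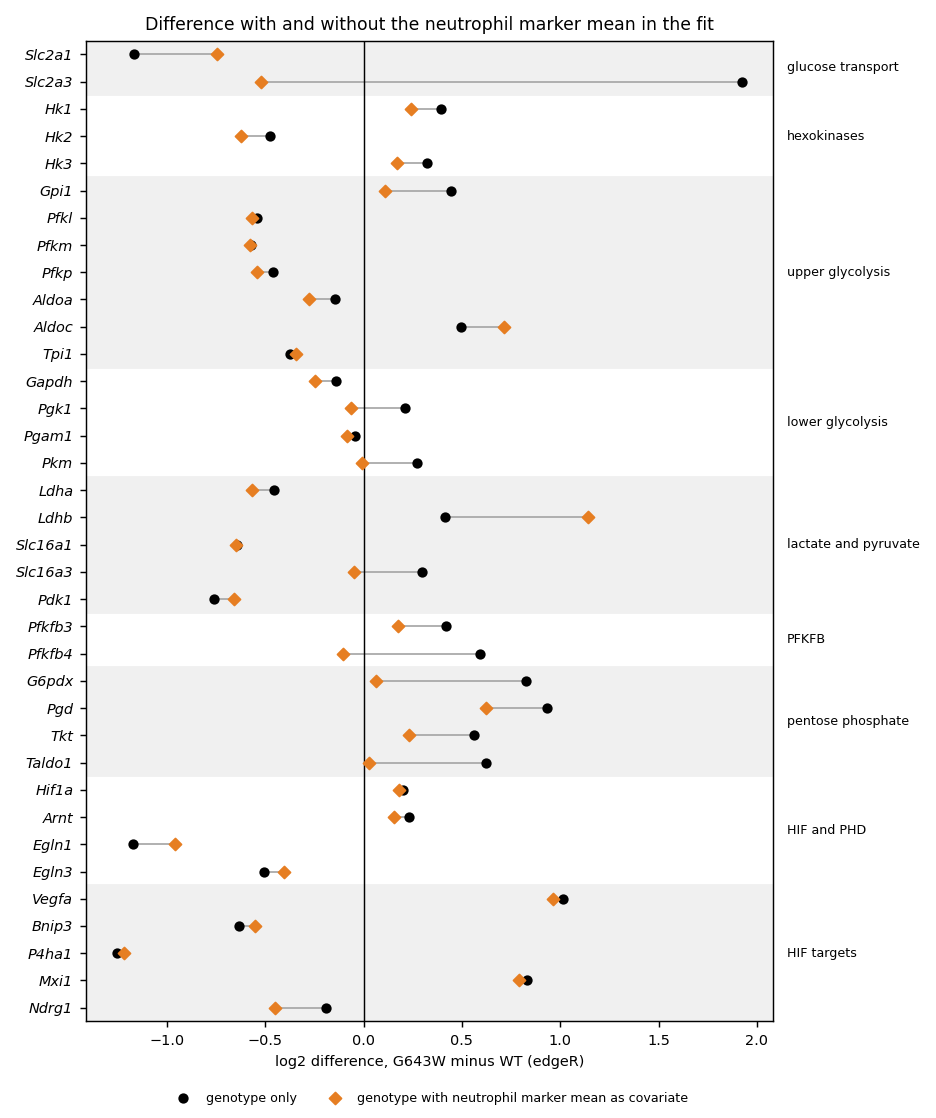
Log2 difference of each gene, G643W minus WT, from the fit with genotype only (black circles) and with the mean of the neutrophil markers as a covariate (orange diamonds). Slc2a3 is at 1.92 without the covariate and at -0.52 with it, the pentose phosphate genes lie nearer 0 with it, and P4ha1 and Mxi1 are at -1.22 and 0.79 with it.

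The regulators of the hypoxia response were expressed at modest levels. Hif1a, the oxygen-sensitive subunit of HIF, was at 96.9, 66.0 and 91.1 CPM in G643W libraries, against 56.5, 72.6 and 91.9 CPM in WT libraries (0.20 ± 0.26). Its partner Arnt was at 40.3, 58.8 and 51.5 CPM in G643W libraries, against 45.3, 46.4 and 36.6 CPM in WT libraries (0.23 ± 0.22). Egln1 encodes PHD2, the main hydroxylase that marks Hif1a for destruction (ENSMUSG00000031987, chromosome 8, 124908587 to 124949324, minus strand), and was at 35.7, 14.1 and 15.2 CPM in G643W libraries, against 46.3, 56.5 and 43.4 CPM in WT libraries. No values overlapped, and the log2 difference was -1.17 ± 0.39 (edgeR adjusted p = 0.493), which is 0.44 times the WT level. It stayed between -1.65 and -0.94 with any library left out. Egln3, which encodes PHD3, was at 56.6, 21.0 and 34.5 CPM in G643W libraries, against 45.3, 53.4 and 60.6 CPM in WT libraries, and overlapped (-0.51 ± 0.36, edgeR adjusted p = 0.610). Its difference was -0.22 without G643W library 2 and -0.86 without G643W library 1. Both genes are also known HIF targets.

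The HIF targets did not move as one group. P4ha1, a catalytic subunit of the hydroxylase that matures collagen (ENSMUSG00000019916, chromosome 10, 59323296 to 59373304, plus strand of GRCm38), was at 33.3, 17.9 and 33.8 CPM in G643W libraries, against 56.2, 71.0 and 75.5 CPM in WT libraries. The lowest WT library lay well above the highest G643W library, and the log2 difference was -1.25 ± 0.29 (edgeR adjusted p = 0.388), 0.42 times the WT level. Its adjusted p ranged from 0.0906 to 0.915 over the alternatives, and its difference from -1.40 to -1.01 with any library left out. Bnip3, a mitochondrial protein that promotes the removal of mitochondria, was at 26.6, 22.7 and 21.2 CPM in G643W libraries, against 31.1, 47.2 and 31.1 CPM in WT libraries. The groups did not overlap (-0.63 ± 0.25, edgeR adjusted p = 0.503), and the difference was -0.37 without WT library 2. Mxi1, which pairs with Max and opposes Myc, was instead higher in G643W (ENSMUSG00000025025, chromosome 19, 53310518 to 53375810, plus strand), at 124, 134 and 135 CPM in G643W libraries, against 66.1, 82.6 and 72.0 CPM in WT libraries. The lowest G643W library lay well above the highest WT library, with a log2 difference of 0.83 ± 0.18 (edgeR adjusted p = 0.363) and 1.78 times the WT level. Its adjusted p ranged from 0.123 to 0.960 over the alternatives, and its difference stayed between 0.76 and 0.96 with any library left out. With the neutrophil covariate, the differences were -1.22 for P4ha1, -0.96 for Egln1 and 0.79 for Mxi1. The monocyte and dendritic cell sums and Cd34, given above, were lower in every G643W library than in every WT library. So were P4ha1, Egln1 and Bnip3, and the part of those sums and of Cd34 in these results was not tested.

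Vegfa, the vascular growth factor, was at 83.2, 66.3 and 55.2 CPM in G643W libraries, against 8.65, 32.7 and 60.2 CPM in WT libraries. The groups overlapped through WT library 3, and the log2 difference of 1.01 ± 0.61 (edgeR adjusted p = 0.574) was 0.55 without WT library 1 and 1.79 without WT library 3. Ndrg1, a stress-response gene, differed least of the targets (-0.19 ± 0.27, edgeR adjusted p = 0.792).

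**Figure D5:**
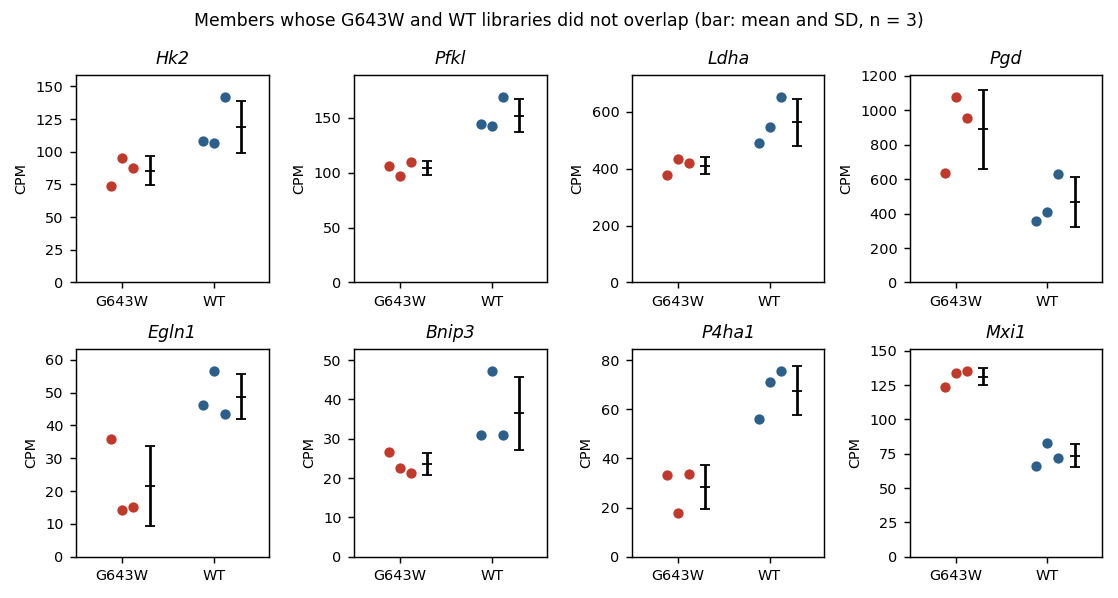
CPM of the 8 genes whose libraries do not overlap between genotypes, one point for each library, with the mean and SD (n = 3) beside each group and the axis starting at 0. Pgd and Mxi1 are higher in G643W; Hk2, Pfkl, Ldha, Egln1, Bnip3 and P4ha1 are lower.

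The promoters of 3 of these targets are shown because HIF binds the core sequence ACGTG or GCGTG, the hypoxia response element. Each is the 250 bases before a start site on the gene's own strand (RefSeq, GRCm38.p6), and capitals mark each core or its reverse complement. The windows lie at chr10:59323046-59323295 on the plus strand for P4ha1, chr7:138909507-138909756 on the minus strand for Bnip3, and chr19:53329163-53329412 on the plus strand for the second of 3 Mxi1 starts.
P4ha1: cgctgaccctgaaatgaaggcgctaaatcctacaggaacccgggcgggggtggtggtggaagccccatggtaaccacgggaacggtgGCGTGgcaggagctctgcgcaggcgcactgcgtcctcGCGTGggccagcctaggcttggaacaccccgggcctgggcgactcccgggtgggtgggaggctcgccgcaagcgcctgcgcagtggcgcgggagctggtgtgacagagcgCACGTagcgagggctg
Bnip3: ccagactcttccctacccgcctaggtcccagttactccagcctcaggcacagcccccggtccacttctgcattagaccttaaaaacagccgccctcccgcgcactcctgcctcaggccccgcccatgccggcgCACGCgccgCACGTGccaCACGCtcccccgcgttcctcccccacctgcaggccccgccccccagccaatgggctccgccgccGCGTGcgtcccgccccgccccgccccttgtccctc
Mxi1: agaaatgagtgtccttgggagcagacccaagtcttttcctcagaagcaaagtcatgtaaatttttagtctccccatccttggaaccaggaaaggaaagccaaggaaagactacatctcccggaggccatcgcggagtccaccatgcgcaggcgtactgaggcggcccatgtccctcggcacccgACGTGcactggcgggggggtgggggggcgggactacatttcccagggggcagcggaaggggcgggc
P4ha1 held cores starting 163, 126 and 16 bases before its start. Bnip3 held 5, of which a pair overlaps in the palindrome CACGTG, and the Mxi1 window held 1. The Mxi1 window ends right before the transcript Mxi1-203, which was at 4.12, 3.56 and 5.01 TPM in G643W libraries, against 1.67, 2.33 and 2.21 TPM in WT libraries. Its values did not overlap between genotypes, whereas those of Mxi1-201 did, at 2.14, 6.35 and 5.36 TPM in G643W libraries and 0.779, 1.01 and 2.55 TPM in WT libraries. The window of the first RefSeq start, near the start of Mxi1-201, held 0 cores, and that of the last start held 1. The Mxi1 window shown also lies before Mxi1-202, which starts at 53329458, against 53329413 for Mxi1-203, and held 43.2% of the Mxi1 reads. Mxi1-202 overlapped too, at 8.49, 3.56 and 5.05 TPM in G643W libraries and 4.89, 4.85 and 3.09 TPM in WT libraries. Promoters could be matched for 34 of the 36 genes, and 32 of these (94.1%) held a core on either strand before at least 1 start, against 41.5% of all genes in the table. The genes without one were Gpi1 and Tpi1. Of all starts, 79.6% of the 49 in the set held a core, against 38.6%, and the median GC content of these windows was 60.0% against 52.4%. The part of GC content in this difference was not tested. HIF switches on many glycolytic genes, so genes listed by name for these pathways are not a neutral sample for this motif. The 34 genes also had 49 starts, against 32851 starts for 27025 genes in the table, and more starts give more windows in which to find a core. A core is only a sequence match, not a bound site.

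The wider pathways were read from 147 further genes in 9 lists, of which 122 were tested. None passed the threshold, 13 had an unadjusted p under 0.05 (7 higher and 6 lower in G643W), and the median log2 difference was -0.08. The 13 genes are 10.7% of those tested, near the 9.66% of all genes. Among 36 other HIF targets, 30 were tested, with 12 positive and 18 negative differences and a median of -0.21. In that list 2 genes were without overlap and higher and 7 without overlap and lower in G643W, where 7.05% and 8.89% of all genes were. Its lowest p belonged to Pdgfb, a growth factor gene, at 0.146, 0.225 and 0.499 CPM in G643W libraries, against 1.75, 3.02 and 0.877 CPM in WT libraries (-2.69 ± 0.70, edgeR adjusted p = 0.436). Among the regulators of HIF, the lowest was Siah2, a ubiquitin ligase that acts on Egln3 protein, at 9.28, 3.32 and 6.44 CPM in G643W libraries, against 29.8, 20.9 and 10.3 CPM in WT libraries (-1.68 ± 0.52, edgeR adjusted p = 0.482). In other glycolysis genes it was Slc2a9, of the glucose transporter family and known for urate transport, at 32.0, 34.3 and 33.8 CPM in G643W libraries, against 17.1, 13.5 and 19.0 CPM in WT libraries (1.01 ± 0.22, edgeR adjusted p = 0.346). Its G643W values were close together and none overlapped.

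In the rest of the pentose phosphate pathway, Pgls, the lactonase between G6pdx and Pgd, was at 82.2, 66.7 and 60.3 CPM in G643W libraries, against 106, 108 and 96.1 CPM in WT libraries (-0.57 ± 0.20, edgeR adjusted p = 0.493). This step thus lay opposite in sign to its neighbours. Fbp1, which runs the phosphofructokinase step in reverse, was at 97.6, 36.8 and 39.1 CPM in G643W libraries, against 13.5, 25.5 and 30.04 CPM in WT libraries (1.33 ± 0.48, edgeR adjusted p = 0.493). Among glycogen genes, 9 of 13 differences were positive, with a median of 0.37, where 49.2% of all genes tested had a positive difference. In the list that holds Fbp1, 2 of 8 were positive (median -0.16), and among hexosamine genes 2 of 8 (-0.29). Among genes of pyruvate entry 5 of 13 were positive (-0.10), and among regulators of glycolysis 6 of 12 (-0.07). Uap1, of the hexosamine branch, was at 48.5, 36.6 and 39.4 CPM in G643W libraries, against 54.7, 70.4 and 57.6 CPM in WT libraries (-0.55 ± 0.21). Pdk3, a kinase of pyruvate dehydrogenase like Pdk1, was at 29.6, 54.5 and 48.6 CPM in G643W libraries, against 28.9, 28.9 and 31.0 CPM in WT libraries (0.58 ± 0.26). Prkaa1, a catalytic subunit of the energy sensor AMPK, was at 58.0, 94.6 and 97.5 CPM in G643W libraries, against 39.8, 54.9 and 66.9 CPM in WT libraries (0.63 ± 0.29, edgeR adjusted p = 0.531).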

How the data were processed

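RNA was sequenced from sorted blasts of 6 mouse libraries (TruSeq V2, per the labels). The authors deposited Salmon tables per transcript. Per the file headers they hold estimated counts, which need not be whole, and TPM; Salmon 0.12.0 is named in the submitters' processing notes, and its options, index and strand setting were not given in the sources used here. GENCODE M21 (GRCm38) gave a gene for 136176 of 136288 transcripts, and values were added up for 53458 genes. The 112 unmatched transcripts took no more than 0.0365% of the reads in any library.

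Counts were rounded and tested on the whole table with edgeR 4.0.16 (TMM, filterByExpr with minimum count 10, quasi-likelihood, genotype only, R 4.3.3), with Benjamini-Hochberg adjustment and a threshold of 0.05. The standard error is the log2 difference divided by the root of F. The biological coefficient of variation was 52.8%. Salmon splits shared reads by a model; copies were sought with BLAST+ 2.17.0 (95% identity, 50% of the copy, 200.0 bases).

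Values per library are given for genes past the threshold or without overlap in CPM, the 10 with the highest TPM, the 6 with the largest difference at 1 CPM or more, and isozymes of these; values of other members were added after they were seen. Of each other list, the gene with the lowest p is given, except for the glycogen list, where it is not reported here. The members and lists were chosen with earlier results of these data known. Alternatives were other scaling, filters and counting, DESeq2 1.42.0, limma 3.58.1 on log2(TPM + 1) or log2(TPM + 0.1), a replicate block, a neutrophil covariate and each library left out. The procedure was tested on simulated data.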

Additional observations from a re-analysis of the deposited data

How the results depend on the processing

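No alternative called any of the 36 genes. The count of all genes called, 25, became 16 (8 higher, 8 lower) with no scaling factor, 104 (37 higher, 67 lower) with no filter, 10 (8 higher, 2 lower) with length-scaled counts, 380 (132 higher, 248 lower) with DESeq2, and 43 when log2(TPM + 0.1) was tested by limma. With the replicate block it was 0 (1772 at an unadjusted p under 0.05). It ranged from 0 to 16 with a library left out, and was 0 without WT library 2 (1277 at an unadjusted p under 0.05). The median log2 difference of the 36 genes, 0.20, was -0.0945 with the neutrophil covariate and ranged from -0.0671 (without WT library 1) to 0.35 (without WT library 3) with a library left out, and was 0.0614 without WT library 2. The neutrophil covariate changed the sign of Pfkfb4, Pgk1, Pkm, Slc16a3 and Slc2a3. Other sign changes were in Aldoa, Aldoc, Gapdh, Ldhb, Ndrg1 and Pgam1. No scaling alternative changed a sign. The difference in the Pkm M1 share ranged from -2.13 to 1.14 percentage points with a library left out and was -0.77 within pairs (replicate block). The cause of these changes was not tested. Deviations of libraries with the same number had correlations of 0.112, -0.165 and 0.176. Those of libraries with different numbers ranged from -0.284 to 0.228. With 3 libraries per genotype, these values cannot decide whether the numbers pair the libraries.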
